A study of Mus musculus with 72 samples.

Results

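The Sox2ot amplicon is one of the non-imprinted control regions that were sequenced beside imprinted regions in a study of DNA methylation in the aged mouse brain. Its members were all CpGs of the deposited table that carry the feature name Sox2ot, 17 of the 224 CpGs in the table. Of these, 14 CpGs had at least 50 calls on an allele in some library and carried every level given here. A call is the methylated or unmethylated state read at 1 CpG on 1 read, and a level is the percent of calls that were methylated. The other 3 CpGs had at most 3, 2 and 17 calls on 1 allele of any library and are described last.

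The libraries came from 8 female first-generation hybrid mice of reciprocal crosses between the BL6 and CAST strains, with no transgene or treatment in the labels. Old mice 1 and 2 were 101 weeks old with a BL6 mother and a CAST father, and old mice 3 and 4 were 103 weeks old with a CAST mother and a BL6 father. Young mice 5 and 6 were 8 weeks old with a CAST mother, and young mice 7 and 8 were 9 weeks old with a BL6 mother. These ages are those of the sample labels, and within an age group the cross goes with a difference of 1 or 2 weeks. From each mouse, 5 dissected brain areas and the lung, the control organ, gave 1 library each, so that a library is a mixture of all cell types in the piece. Strain variants in the reads assigned each read to a parental genome, which gave every CpG a level on each parental allele.

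Sox2 encodes a transcription factor that maintains pluripotent cells and neural stem cells, and it stays active in glia and in restricted groups of neurons of the adult brain. In lung it marks the epithelium of the conducting airways. Sox2ot is a long noncoding RNA gene whose transcription unit encloses Sox2 in the same orientation. CpG-dense promoters such as that of Sox2 are typically free of methylation in normal tissue, and bisulfite sequencing does not distinguish 5-methylcytosine from 5-hydroxymethylcytosine, which is abundant in brain.

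The 14 CpGs lay at chr3:34649370-34649554 (build GRCm38), inside Sox2ot (chr3:34560381-34677993) and upstream of Sox2 (chr3:34649995-34652461, plus strand). The CpG farthest from Sox2 was 625 bases before the annotated Sox2 start and the nearest was 441 bases before it. The Sox2 promoter window of RefSeq (GRCm38.p6, chr3:34649745-34650044, plus strand) begins past the last measured CpG and is shown, with each CpG in capitals, because it is the CpG-dense sequence that the measured stretch leads into.
Sox2 promoter: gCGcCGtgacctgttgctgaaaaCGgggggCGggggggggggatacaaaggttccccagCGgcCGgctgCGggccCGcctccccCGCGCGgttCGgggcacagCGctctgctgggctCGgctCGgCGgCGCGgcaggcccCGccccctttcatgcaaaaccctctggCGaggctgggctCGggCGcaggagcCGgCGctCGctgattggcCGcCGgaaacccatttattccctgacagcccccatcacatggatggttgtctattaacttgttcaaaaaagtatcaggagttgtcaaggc
The window held 27 CpGs in 300 bases with 66.3% G and C. As many CpGs or more were held by 15.5% of 32851 mouse promoter windows of that length, whose median was 7 (the motif is CG, which reads alike on both strands). No CpG of this window was measured in the amplicon.

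Of the 96 library-alleles (48 libraries with 2 alleles each), 83 had a Sox2ot level, and 41 libraries had one on both alleles. Sox2ot depth in these 83 ran from 50 to 1014 reads with a median of 142 reads, at which 1 read is worth 0.704 percentage points at a CpG. The calls of the 14 CpGs in a library-allele differed by at most 2, so these CpGs were read on the same molecules and are not independent measurements. Young mouse 8 was the shallowest animal and lacked 9 of its 12 library-alleles, and hippocampus rests on old mice 2 and 4 and young mice 5, 6 and 7. As a check of the alleles, the maternal level was above the paternal level in 237 of 238 pairs from 7 maternally methylated imprinted regions. The tissue labels could not be checked against marker genes, since none is measured by these amplicons.

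The first comparison asked whether the level of the region depends on the tissue. Sox2ot was low everywhere, and it was higher in hypothalamus and nucleus accumbens than in cerebellum, prefrontal cortex and lung. In tissue pieces, more methylation in every cell and a larger share of methylated cells cannot be told apart. The mean of both alleles was 6.54% ± 1.60 in hypothalamus (SD, n = 7 mice) and 6.04% ± 1.25 in nucleus accumbens (n = 7). It was 2.74% ± 0.996 in lung (n = 7), 2.54% ± 0.670 in prefrontal cortex (n = 7), 2.10% ± 0.744 in hippocampus (n = 5) and 2.04% ± 0.687 in cerebellum (n = 8).

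In hypothalamus, mice 1 to 7 had 8.13%, 3.27%, 7.70%, 6.64%, 6.68%, 6.13% and 7.26%. In nucleus accumbens the same mice had 4.25%, 6.23%, 5.80%, 5.13%, 5.70%, 7.14% and 8.02%. In lung they had 3.91%, 3.22%, 3.95%, 2.62%, 1.51%, 2.29% and 1.67%. Hypothalamus of old mouse 2 was the lowest of the 14 libraries of these brain areas, and it was the only 1 of them inside the range of the 27 libraries of the other tissues, which reached from 1.24% to 3.95%. Cerebellum ranged from 1.24% to 3.24%, prefrontal cortex from 1.84% to 3.81% and hippocampus from 1.31% to 3.17%, and these overlapped each other and lung.

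All 15 pairs of tissues were compared within mice by an exact two-sided sign-flip test with Benjamini-Hochberg adjustment over the pairs. Hypothalamus exceeded cerebellum by 4.68 ± 1.80 percentage points, prefrontal cortex by 4.00 ± 1.60 and lung by 3.81 ± 1.80, in 7 of 7 mice each (exact p = 0.0156, the smallest that 7 mice can give; adjusted p = 0.0391). Nucleus accumbens exceeded cerebellum by 4.18 ± 1.36 points, prefrontal cortex by 3.50 ± 1.53 and lung by 3.30 ± 2.00, also in 7 of 7 mice each (exact p = 0.0156, adjusted p = 0.0391). Both areas were above hippocampus in 5 of 5 mice, by 3.89 ± 1.89 and 4.34 ± 1.49 points, where 5 mice cannot go below an exact p of 0.0625 (adjusted p = 0.104). Hypothalamus and nucleus accumbens, the neighbours at the top of the order, differed by 0.51 ± 2.25 points (exact p = 0.578), less than the spread between mice. Of the pairs among the 4 lower tissues none passed the adjusted threshold; prefrontal cortex was 0.68 ± 0.73 points above cerebellum in 6 of 7 mice (exact p = 0.0312, adjusted p = 0.067). With 6 of the mice the smallest exact p is 0.0312. Without any 1 of mice 1 to 7 the count fell from 6 to 0, with smallest adjusted p of 0.067 to 0.0781. Without the CpGs at the ends of the amplicon, with no mouse lost, it also fell to 0 (smallest adjusted p = 0.0586). In both cases all differences named for hypothalamus and nucleus accumbens kept their sign.

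**Figure D1:**
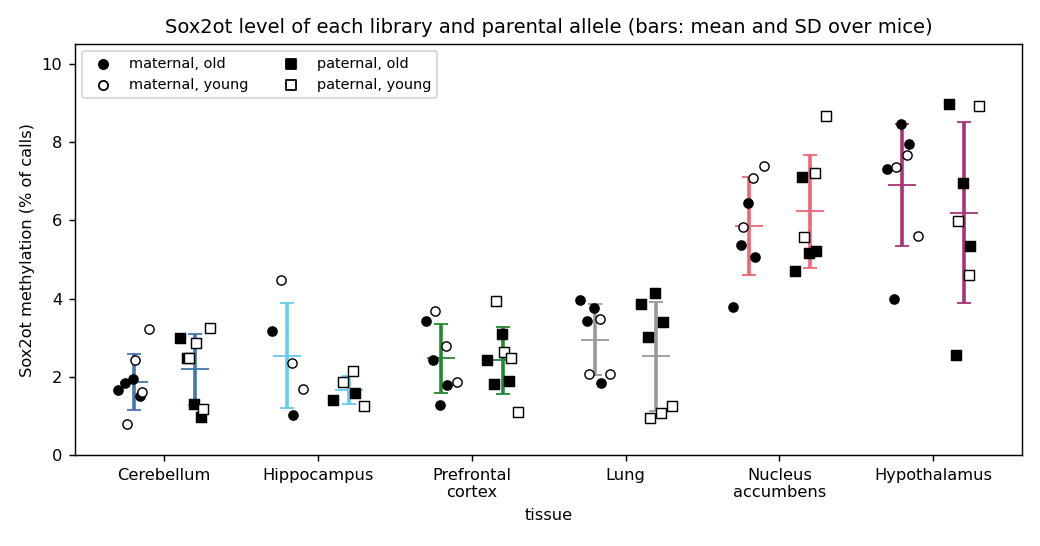
Methylation level of Sox2ot (vertical axis, percent of calls) in each library by tissue (horizontal axis), with circles for the maternal and squares for the paternal allele, filled for old and open for young mice; coloured bars give the mean and SD over mice. Hypothalamus and nucleus accumbens lie highest on both alleles, and the open squares of lung, 0.951% to 1.25%, lie below its filled squares.

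Each brain area was then set against lung on each parental allele, in a limma fit of all region-alleles of the table (a region on 1 parental allele) with age and cross as covariates. The maternal allele of Sox2ot had 5.85% ± 1.25 in nucleus accumbens and 6.90% ± 1.56 in hypothalamus, where lung had 2.95% ± 0.909 (n = 7 each). The paternal allele had 6.23% ± 1.44, 6.19% ± 2.32 and 2.53% ± 1.39 in the same order. The 4 differences for these areas passed, whereas the 6 for cerebellum, hippocampus and prefrontal cortex did not. Over all region-alleles tested, 22.2% passed as higher in hypothalamus and 22.2% in nucleus accumbens (4 of 18 each, Sox2ot included). In hypothalamus the fitted difference was 3.95 points on the maternal allele (95% interval 2.40 to 5.50, limma adjusted p = 0.00157) and 3.66 points on the paternal allele (1.37 to 5.96, limma adjusted p = 0.0184). In nucleus accumbens it was 2.90 points (1.44 to 4.37, limma adjusted p = 0.00468) and 3.70 points (1.93 to 5.47, limma adjusted p = 0.00468). This fit did not pair the tissues of a mouse. Fitted as within-mouse differences, the 4 also passed, with larger limma adjusted p of 0.013 to 0.0214.

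The quasi-likelihood test of edgeR was run on the calls themselves, summed over the CpGs of a region. It gave the same 4 calls, with log2 odds ratios of 1.07 to 1.55 and adjusted p of 0.000745 to 0.00664. The share of all region-alleles that edgeR called is not given here. Without mouse 1, 5 or 7 the paternal difference in hypothalamus missed the threshold, at 3.42, 3.43 and 3.00 points (limma adjusted p of 0.0608 to 0.0686). For the other areas the fitted differences from lung ran from -1.08 points in maternal cerebellum to 0.0048 points in paternal prefrontal cortex (limma adjusted p of 0.299 to 0.994). The background called in either direction was 16.7% of 18 region-alleles in cerebellum, 5.88% of 17 in hippocampus and 0% of 18 in prefrontal cortex. The share called as higher was 11.1% in cerebellum and 0% in hippocampus and prefrontal cortex.

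CpG by CpG, methylation was lowest at 574 bases before Sox2 in each of the 6 tissues, from 0.596% in hippocampus to 2.35% in hypothalamus. Over the 41 libraries with both alleles, the highest mean levels were 5.99% ± 2.87 at 484 bases before the Sox2 start, 5.08% ± 4.13 at 625 bases and 5.04% ± 3.49 at 599 bases. The lowest were 1.19% ± 1.23 at 574 bases, 2.46% ± 2.29 at 441 bases and 2.99% ± 2.11 at 474 bases. Maternal and paternal means followed each other over the 14 CpGs, with a Pearson r of 0.887 and a Spearman rho of 0.776, as a description of CpGs that share reads and libraries.

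The CpG 625 bases before Sox2 had the largest tissue difference. Its mean of both alleles in mice 1 to 7 of hypothalamus was 11.4%, 6.99%, 9.27%, 8.34%, 12.8%, 9.61% and 10.9%. For nucleus accumbens these mice had 11.3%, 7.89%, 9.50%, 9.48%, 12.6%, 11.9% and 12.9%. In lung they had 3.68%, 1.25%, 2.60%, 1.09%, 1.14%, 1.27% and 0%. No library of hypothalamus or nucleus accumbens overlapped lung at this CpG. It was picked for its wide gap after the values had been seen. The share of all CpGs that do not overlap lung was not computed, so the lack of overlap has no background here. The lung value of mouse 7 rests on 356 maternal and 441 paternal reads.

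Against lung, 12 of the 28 Sox2ot CpG-alleles (8 maternal and 4 paternal) were higher in hypothalamus and 14 (7 and 7) in nucleus accumbens, by limma over all CpG-alleles of the table. The background was 8.52% of 223 CpG-alleles higher in hypothalamus and 13.9% in nucleus accumbens, Sox2ot included. With the mouse as a block, which pairs the tissues of an animal, the counts were 11 and 8. The CpGs at 625 and 612 bases were called on both alleles in both areas. At 625 bases the difference was 8.34 points (maternal) and 8.32 points (paternal) in hypothalamus, and 8.26 and 10.2 points in nucleus accumbens (limma adjusted p of 0.000936 to 0.00253). The CpG at 599 bases was called on both alleles in hypothalamus, by 5.93 and 6.66 points, and on the paternal allele in nucleus accumbens, by 7.79 points. The CpGs at 607, 584, 553, 476, 466 and 441 bases were called on at least 1 allele of at least 1 area, by 2.86 to 6.01 points. The CpGs at 574, 515, 492, 484 and 474 bases were not called in either area.

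The median difference over the 28 CpG-alleles was 3.42 points in hypothalamus and 3.16 in nucleus accumbens, beside 0.36 and 0.47 points over all CpG-alleles tested. In cerebellum the median was -0.64 points, beside 0.50 over all. There 1 CpG-allele was called, at 607 bases on the maternal allele, with 0.616% against 3.43% in lung and a difference of -2.87 points (limma adjusted p = 0.0436; background 9.42% of 223 called in either direction), and 0 were called with the mouse as a block. In hippocampus and prefrontal cortex 0 of 28 were called by limma, beside backgrounds of 8.88% of 214 and 0% of 223. At an unadjusted p below 0.05 there were 2 and 4 of 28, where the share over all CpG-alleles was 20.1% and 11.2%.

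The shape of the profile differed between tissues. The 5 CpGs farthest from Sox2 averaged 8.29% in nucleus accumbens and 7.76% in hypothalamus, where the other 9 averaged 4.79% and 5.87%. The same order, with a smaller gap, held in prefrontal cortex (2.77% and 2.42%) and hippocampus (2.48% and 1.89%). In lung the same 5 averaged 2.23% and the other 9 averaged 3.02%, and in cerebellum 1.71% and 2.22%. This split was made after the values had been seen and is a description with no test. The highest CpG was at 625 bases in hypothalamus and nucleus accumbens, at 484 bases in hippocampus, cerebellum and lung (6.94% in lung) and at 476 bases in prefrontal cortex. Across the 14 CpGs the profile of hypothalamus had a Spearman rho of 0.859 with nucleus accumbens, 0.793 with prefrontal cortex, 0.512 with hippocampus, 0.385 with cerebellum and 0.138 with lung, and cerebellum had 0.736 with lung.

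**Figure D2:**
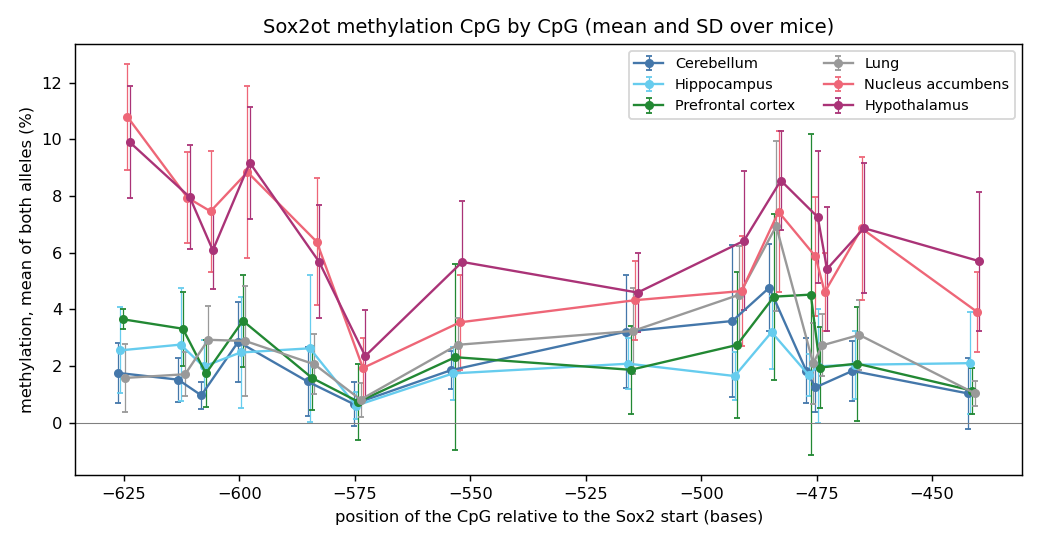
Methylation of each of the 14 CpGs (vertical axis, mean of both alleles in percent) against its position relative to the Sox2 start (horizontal axis, bases), one line per tissue, with points for the mean and bars for the SD over mice. Nucleus accumbens and hypothalamus are far above the rest at the left end, 10.8% and 9.90% at 625 bases against 1.57% in lung, and all tissues meet near the CpG at 574 bases.

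Klf4, a gene of another pluripotency transcription factor, is the other control region with low methylation, and it was read in the same libraries after the same bisulfite treatment. Klf4 was below Sox2ot in every tissue mean, and the gap was widest in hypothalamus and nucleus accumbens. In the same mice Sox2ot had 6.54% and Klf4 1.82% ± 0.507 in hypothalamus, a difference of 4.72 ± 1.59 points in 7 of 7 mice (exact sign-flip p = 0.0156, adjusted over 6 tissues p = 0.0312). The difference was 3.84 ± 1.43 points in nucleus accumbens and 1.61 ± 0.927 points in lung, in 7 of 7 mice each (exact p = 0.0156, adjusted p = 0.0312). In cerebellum it was 0.854 ± 0.772 points in 7 of 8 mice (exact p = 0.0234, adjusted p = 0.0352). Without mouse 1, 2, 3, 5 or 6 these 4 differences missed the threshold (adjusted p of 0.0625 in hypothalamus, nucleus accumbens and lung and 0.0703 in cerebellum), and cerebellum also without mouse 8. Hypothalamus, nucleus accumbens and lung then rest on 6 mice, which cannot go below an exact p of 0.0312. Without mouse 4 or 7 they also rest on 6 mice, and there they still passed. With each mouse left out, their differences ran from 4.53 to 5.29, 3.53 to 4.31 and 1.39 to 1.77 points. In hippocampus, 0.404 ± 0.924 points (n = 4), and in prefrontal cortex, 0.299 ± 0.561 points (n = 6), the regions differed by less than the spread between mice (exact p = 0.375 and 0.312).

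Klf4 itself was 0.62 and 0.82 points above lung in hypothalamus and 1.19 and 0.88 points above it in nucleus accumbens (maternal and paternal allele), none past the threshold (limma adjusted p of 0.0975 to 0.298). After Klf4 of the same library was subtracted, the maternal difference of Sox2ot between nucleus accumbens and lung was 1.64 points and missed the threshold (limma adjusted p = 0.195), while the other 3 differences still passed. Prickle1, a planar cell polarity gene and the methylated control, had tissue means of 88.6% in lung, 92.2% in hypothalamus, 92.4% in nucleus accumbens and 92.3% in cerebellum. The part of library-wide differences in the tissue order of Sox2ot was not tested beyond this subtraction.

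**Figure D3:**
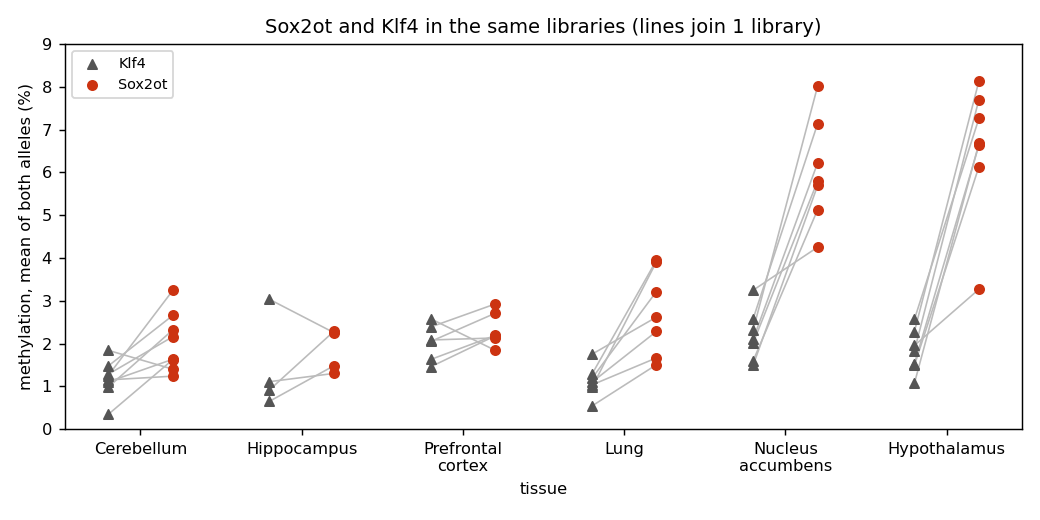
Mean methylation of both alleles (vertical axis, percent) of Klf4 (triangles) and Sox2ot (circles) by tissue (horizontal axis), each line joining the regions in 1 library. All lines climb in hypothalamus and nucleus accumbens, where Sox2ot exceeds Klf4 by 4.72 and 3.84 points on average, and in lung, by 1.61 points; in cerebellum, hippocampus and prefrontal cortex 1 line each runs down.

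The parental alleles of Sox2ot did not differ beyond the spread between mice. Maternal minus paternal, averaged over the tissues of a mouse, was 0.12 ± 0.505 points, positive in 5 of 8 mice (exact sign-flip p = 0.539). Within tissues it ran from -0.377 points in nucleus accumbens to 0.887 points in hippocampus, and 0 of 6 tissues passed the sign-flip test, with or without adjustment. Reciprocal crosses allow the same reads to be sorted by strain. The BL6 allele minus the CAST allele was -0.335 ± 0.379 points on average, and BL6 was lower in 7 of 8 mice (exact p = 0.0547). In hypothalamus BL6 minus CAST was -1.73 ± 1.59 points, with BL6 lower in 6 of 7 mice (exact p = 0.0469, adjusted p = 0.234), and 0 of 6 tissues passed after adjustment. The mean over tissues moved to the other side of 0, to 0.666 points, when only CpGs with 200 or more calls were used (exact p = 0.0625). It passed at 100 calls (-0.373 points, exact p = 0.0312). Both settings rest on fewer mice and libraries, and the part of this in the change was not tested.

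Mice with a CAST mother were compared with mice with a BL6 mother in 12 tests (6 tissues on 2 alleles, the cross coefficient of the age fit). By limma 0 of 12 passed, beside a background of 0% of the 16 or 17 region-alleles per tissue. With an unadjusted p below 0.05 there were also 0 of 12, beside 12.5% of region-alleles in cerebellum, 6.25% in lung and prefrontal cortex and 0% in the other 3 tissues. The largest estimate was 2.30 points in maternal hypothalamus, 7.85% with a CAST mother and 5.63% with a BL6 mother (95% interval -0.43 to 5.03, limma adjusted p = 0.67).

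The age comparison asked whether the unmethylated state of the region held in old animals. In the brain no age difference of Sox2ot passed the test, and the widest gap was in lung on the paternal allele. Of the 12 tests (6 tissues on 2 alleles, cross as covariate), limma called 0, with 1 at an unadjusted p below 0.05, and edgeR called 1, both of these being paternal lung. The share over all region-alleles is given for limma only, so the edgeR call stands without a background. The background was 0% of the 16 or 17 region-alleles per tissue past the adjusted threshold, so limma called no region of any kind for age; at an unadjusted p below 0.05 the share was 12.5% in prefrontal cortex, 6.25% in lung and cerebellum, 5.88% in hippocampus and 0% in hypothalamus and nucleus accumbens.

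In cerebellum, with 4 old and 4 young mice, old mice had a maternal level of 1.74% ± 0.197 and young mice one of 2.02% ± 1.05. The paternal level was 1.93% ± 0.953 and 2.45% ± 0.897. In prefrontal cortex maternal levels were 2.24% ± 0.925 (n = 4) and 2.78% ± 0.905 (n = 3), and paternal levels 2.31% ± 0.595 (n = 4) and 2.54% ± 1.16 (n = 4). Old and young mice overlapped in all of these, and the 95% intervals of the fitted differences reached from -3.01 to 1.82 points. In hippocampus, with 2 old and 3 young mice, maternal levels were 2.09% ± 1.52 and 2.85% ± 1.45 and paternal levels 1.50% ± 0.125 and 1.76% ± 0.454. There the intervals were as wide as -5.49 to 4.00 points.

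In hypothalamus 4 old mice had a maternal level of 6.92% ± 2.01 and 3 young mice one of 6.87% ± 1.11, and the paternal levels were 5.96% ± 2.71 and 6.51% ± 2.2. Nucleus accumbens had maternal levels of 5.17% ± 1.09 (old) and 6.76% ± 0.828 (young), a fitted difference of -1.54 points (95% interval -3.90 to 0.81). On the paternal allele it was 5.54% ± 1.06 and 7.14% ± 1.54, a difference of -1.82 points (-4.23 to 0.58, limma adjusted p = 0.731 for both alleles). Old and young mice overlapped in both areas on both alleles.

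**Figure D4:**
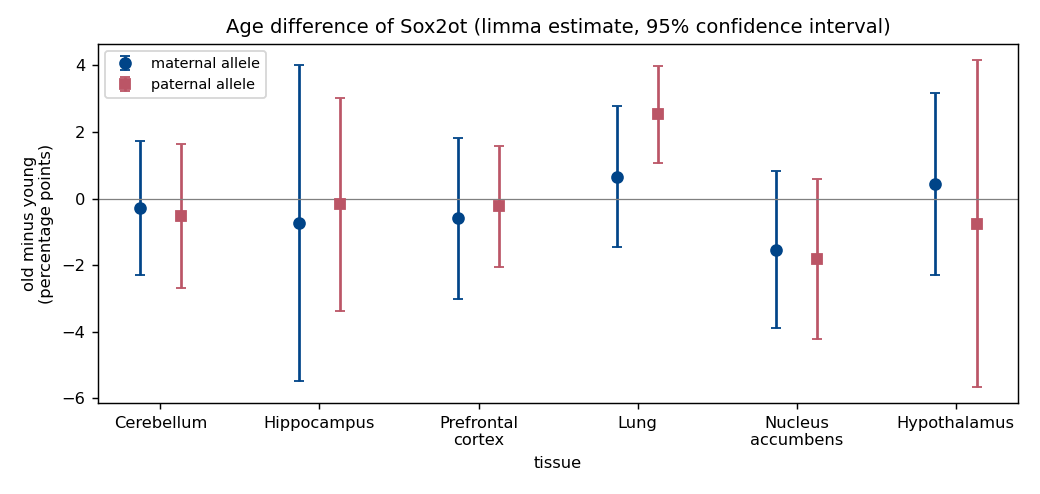
Old minus young difference of Sox2ot (vertical axis, percentage points) by tissue (horizontal axis), with circles for the maternal and squares for the paternal allele and bars for the 95% confidence interval of the limma fit. Paternal lung, at 2.52 points (1.08 to 3.97), is the one interval that does not reach 0.

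In lung the paternal level of Sox2ot was 3.85%, 3.01%, 4.14% and 3.40% in old mice 1 to 4 and 0.951%, 1.09% and 1.25% in young mice 5 to 7. Every old mouse was above every young mouse, which held for 6.25% of the 16 region-alleles tested in lung, paternal Sox2ot alone. The fitted difference was 2.52 points (95% interval 1.08 to 3.97), with an unadjusted limma p of 0.00612 and an adjusted p of 0.0979, which missed the threshold. An exact permutation test of this value gave p = 0.0286, the smallest that 4 against 3 mice allow (adjusted p = 0.457), which restates that the ages did not overlap. The edgeR test on calls gave a log2 odds ratio of 1.74 with an adjusted p of 0.0028. Over the limma alternatives for this allele on the percent scale the difference ran from 1.75 to 2.80 points and the adjusted p from 0.0086 to 0.501, with 5 past the threshold.

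The maternal allele of the same libraries had 3.97%, 3.42%, 3.76% and 1.84% in old mice 1 to 4 and 2.07%, 3.48% and 2.09% in young mice 5 to 7. The ages overlapped, and the difference was 0.66 points (95% interval -1.45 to 2.77, limma adjusted p = 0.807). The difference of the age effect between the alleles was 1.87 points (-0.40 to 4.13, limma adjusted p = 0.352), so the paternal and the maternal age difference were not shown to differ. The mean of both alleles was 1.59 points higher in old lung (95% interval 0.19 to 2.99, limma adjusted p = 0.127).

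Depth and Klf4 were set beside this value. Over the 14 CpGs, paternal Sox2ot in lung rested on 1497 to 2156 calls per old mouse and 2756 to 6174 per young mouse, so depth went with age here; its part in the result was not tested. Young mouse 8 had 33 paternal reads with a level of 0.866% and did not enter; with a minimum of 20 calls it did, and the difference was 2.56 points (limma adjusted p = 0.133). Paternal Klf4 in lung had 1.46% in old and 0.806% in young mice, a difference of 0.77 points (limma adjusted p = 0.643). After subtraction of Klf4 the Sox2ot difference was 1.75 points (95% interval -0.14 to 3.65).

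The paternal lung difference was not even over the amplicon. Of the 14 paternal CpGs, 13 were higher in old lung, with a median difference of 2.64 points; over all CpG-alleles tested in lung the median was 0.60 points. The widest gap lay at 484 bases before Sox2, with 7.91%, 8.44%, 13.1% and 11.3% in old mice 1 to 4 and 2.39%, 1.02% and 0.68% in young mice 5 to 7. No old mouse overlapped a young one, and the difference was 9.31 points (95% interval 6.41 to 12.2, limma adjusted p = 0.0522), just above the threshold. The CpG was picked for this gap, and the share of lung CpG-alleles whose ages do not overlap was not computed. On the maternal allele the same CpG had 8.26% in old and 6.40% in young mice, a difference of 1.37 points (limma adjusted p = 0.902). The next paternal CpG in size, at 492 bases, had 6.31% in old and 2.18% in young mice (4.16 points, limma adjusted p = 0.298), while the CpG at 625 bases, where hypothalamus and nucleus accumbens stood apart from lung, had 2.05% and 1.08% (0.99 points, limma adjusted p = 0.902).

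By limma 0 of 28 Sox2ot CpG-alleles were called for age in each of the 6 tissues. An unadjusted p below 0.05 was reached by 5 in lung, all paternal, by 3 in nucleus accumbens and by 0 in the other 4 tissues. The background at that level was 12.2% of all CpG-alleles tested in lung and 3.5% in nucleus accumbens, and 0% were called after adjustment in any tissue. In nucleus accumbens 4 of the 28 CpG-alleles were higher in old mice and the rest lower, with a median of -1.53 points beside -0.75 over all CpG-alleles tested.

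**Figure D5:**
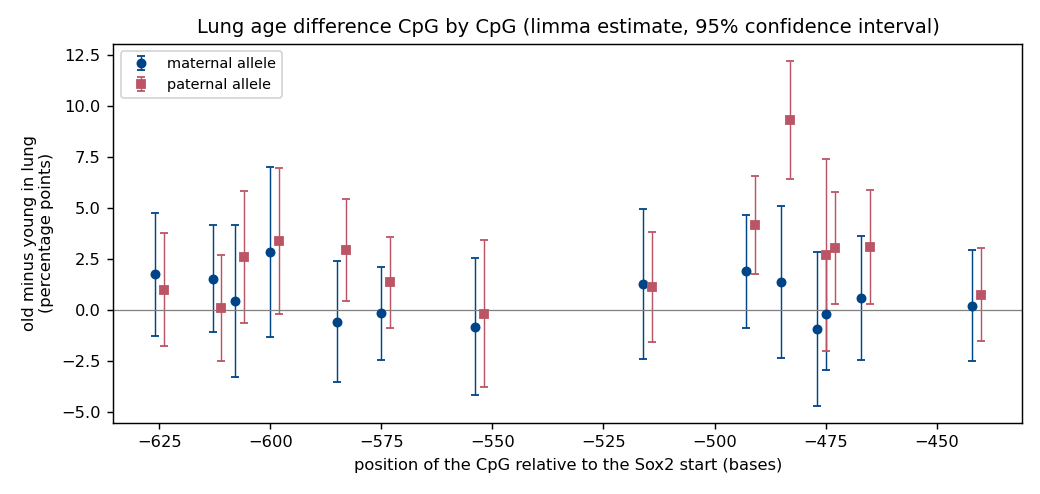
Old minus young difference in lung (vertical axis, percentage points) at each CpG against its position relative to the Sox2 start (horizontal axis, bases), for the maternal (circles) and paternal (squares) allele, with bars for the 95% confidence interval of the limma fit. The paternal CpG at 484 bases stands out at 9.31 points, and most other intervals reach 0.

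The age difference in each brain area was compared with that in lung within mice, as the brain level minus the lung level of an animal. On the paternal allele it was lower than in lung by estimates of -4.35 points in nucleus accumbens (95% interval -7.15 to -1.55, unadjusted p = 0.00958, limma adjusted p = 0.0767) and -3.15 points in prefrontal cortex (-5.42 to -0.88, unadjusted p = 0.0162, limma adjusted p = 0.26). By limma 0 of 10 comparisons passed after adjustment, where the background over all region-alleles was 6.25% of 16 in nucleus accumbens, hypothalamus and hippocampus and 0% in cerebellum and prefrontal cortex. The 2 named had an unadjusted p below 0.05, a level reached by 12.5% of region-alleles in nucleus accumbens and 6.25% in each of the other 4 areas. For the age difference between alleles 0 of 6 tissues passed, adjusted or not, beside 12.5% of 8 regions called in cerebellum and 0% in the other 5 tissues.

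Across libraries the highest Spearman rho with the level of Sox2ot was that of Klf4, 0.46 over 39 libraries. Prickle1 came next with 0.301 over 39, and then Impact with 0.0901 over 38, which is near 0. The other regions compared ran from -0.198 in Commd1 to -0.293 in Gnas. These points share libraries and tissues, and the values are a description. Sox2ot level had a Spearman rho of -0.214 with its own read number and -0.329 with the calls of the library over 41 libraries, and the median library held 42172.5 calls in nucleus accumbens, 55699 in lung, 66998 in hypothalamus, 72160.5 in hippocampus, 91682.5 in cerebellum and 95036.5 in prefrontal cortex. Library depth thus went with tissue, and its part in the tissue differences was not tested.

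The 3 Sox2ot CpGs without enough calls lay at the ends of the amplicon. At 634 and 417 bases before Sox2 all libraries together gave 0 methylated of 12 calls and 0 of 26 calls, which by the limit of 3 counts allow levels of up to 25% and 11.5%, with exact 95% binomial upper bounds of 26.5% and 13.2%. At 404 bases, the CpG nearest to Sox2, 99 calls were methylated and 85 unmethylated.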

How the data were processed

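Bisulfite amplicons (IMPLICON) were measured in 48 libraries, 8 mice in 6 tissues, on lane 7651; the 24 samples on lane 7950 were not analysed here. Products of separate PCRs per primer pair were pooled, per the labels' protocols. They mention no molecular identifier, so whether PCR copies were marked and removed is not known here. Copies may be counted more than once, and the binomial intervals and floors of pooled calls cover counting error only. The limma intervals are over mice. The submitters' processing notes name Bismark 0.14.4, Trim Galore 0.6.6 and bcl2fastq 2.20 with build GRCm38, and how reads were split by genome is not given in the sources used here. The authors deposited, per CpG and genome, the percent of methylated calls and the count of calls behind it, with no further normalization. The table's first genome was read as BL6, an assumption, and the cross then gave the parent of each allele. Libraries had 376 to 461238 calls.

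CpGs needed 50 calls on the allele, and a level is the mean over CpGs. limma 3.58.1 (R 4.3.3) was run on percent over all region-alleles or CpG-alleles of a comparison with at least 2 mice per age or 3 per tissue, two-sided, Benjamini-Hochberg adjusted over all of them, at a threshold of 0.05. edgeR 4.0.16 on methylated and unmethylated counts, summed over the CpGs of a region, was the alternative. Exact tests used Python 3.11.15; the intervals of pooled calls are exact binomial at 95%. Both kinds of test were checked on simulated data.

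The members, lists and tests were chosen with earlier results of these data known. Named CpGs are those past the threshold plus the 3 highest and 3 lowest by mean level; named regions are Klf4, Prickle1 and the 3 most alike across libraries. The CpGs at 492 and 476 bases in single sentences, and the values by mouse at 484 and 625 bases, were added after seeing the values. The mouse number in the labels marks the same animal in all tissues, so it pairs them; deviations of the same mouse correlated with a median of 0.227 (-0.258 to 0.537) over 15 tissue pairs. Alternatives were call minimums of 20, 100 and 200, pooled calls, no end CpGs, the logit scale, Klf4 subtracted, no cross covariate, a variance trend, the mouse as block and each mouse left out.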

Additional observations from a re-analysis of the deposited data

Results flagged for a closer look

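A signal appeared in calls that no comparison used. At the CpG 404 bases before the Sox2 start (chr3, position 34649591 on GRCm38), 53.8% of all calls were methylated, 99 methylated and 85 unmethylated calls pooled over 66 library-alleles (exact 95% binomial interval 46.3% to 61.2%, counting error only). The 14 CpGs with enough calls had mean levels of 1.19% to 5.99%, with 2.46% at the nearest of them, 441 bases before Sox2. The CpG between, at 417 bases, had 0 methylated of 26 calls. No library-allele gave more than 17 calls at this CpG, against a median of 133.5 at the CpGs with enough calls. Its level per library was therefore not estimated, and what the few reads that reach it share was not tested. In 13 groups checked, 0 libraries stood far from the rest of their group by Dixon's criterion, which chance meets in about 1 of 20 groups.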

How the results depend on the processing

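Of 951 values under alternatives of 61 results, 831 kept their direction and their side of the threshold, 45 changed sign, 29 lost the threshold, 11 gained it and 35 counts or values moved. With the minimum of 100 calls, paternal lung passed for age (2.52 points), the age difference turned to 0.213 in maternal cerebellum and 0.11 in paternal hypothalamus, hippocampus minus lung turned to 0.224 (maternal), and BL6 minus CAST was -0.373; CpG-allele calls became 2 for lung age, 0 in cerebellum and 2 in prefrontal cortex, and Sox2ot minus Klf4, on fewer mice, missed the threshold at 0.777 (cerebellum), 5.42 (hypothalamus), 4.53 (nucleus accumbens) and 1.55 (lung). Paternal lung kept the mice and the difference of the main fit at 100 calls, and only the other region-alleles fitted with it changed. At 100 and at 200 calls 0 tissue pairs passed, and at 200 BL6 minus CAST was 0.666, on fewer mice. At 20 calls CpG-allele calls were 1 in hippocampus, 6 in hypothalamus and 9 in nucleus accumbens, and the maternal age difference of hypothalamus minus lung was 0.699.

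Without the end CpGs 0 tissue pairs passed (smallest adjusted p = 0.0586), paternal prefrontal cortex minus lung was -0.105, and the allele difference of the age effect was 0.0051 in nucleus accumbens. With Klf4 subtracted, age differences turned to 0.557 and 0.207 in hippocampus and 0.139 and 0.0224 in cerebellum (maternal, paternal), paternal prefrontal cortex minus lung to -1.25, the allele difference of the age effect in prefrontal cortex to 0.58, and the maternal age difference against lung to 0.859 in hippocampus and 0.307 in cerebellum; maternal nucleus accumbens minus lung, 1.64, missed the threshold. Without the cross covariate paternal prefrontal cortex minus lung was -0.0291. Paternal lung also passed for age without the cross (2.51), with a variance trend or adjustment over the control regions (2.52 each), on the logit scale (1.21) and in edgeR (log2 odds 1.74). Paternal nucleus accumbens minus lung passed for age on the logit scale (-1.51) and with the trend (-4.35), and the allele difference in prefrontal cortex was 0.0369 on the logit scale. The mean of both alleles, added after seeing the data, gave -0.165 for age in hypothalamus. With the mouse as replicate block, CpG-allele calls were 8 in nucleus accumbens, 11 in hypothalamus and 0 in cerebellum, paternal lung had 2.49 points for age, and no call of a region-allele changed. Except where a value or the smaller number of mice shows the cause, the cause was not tested.

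With each mouse left out, age differences ran from -2.40 to 0.0647 (hippocampus, maternal), -0.682 to 0.127 (cerebellum, maternal), -0.62 to 0.137 (prefrontal cortex, paternal), -0.0853 to 1.02 and -1.56 to 0.844 (hypothalamus, maternal and paternal) and 2.28 to 2.75 (lung, paternal; past the threshold without mouse 8, adjusted p = 0.037). Mouse 8 had no level in paternal lung, so the age difference without it was that of the main fit, 2.52 points. Differences from lung ran from -0.984 to 0.113 (hippocampus, maternal), -0.622 to 0.0894 (cerebellum, paternal), -0.449 to 0.264 (prefrontal cortex, paternal) and 3.00 to 4.35 (hypothalamus, paternal). Allele differences of the age effect ran from -0.276 to 1.98 (hippocampus), -0.673 to 0.285 (cerebellum), -0.694 to 0.898 (prefrontal cortex), -1.93 to 0.161 (hypothalamus) and -0.583 to 0.137 (nucleus accumbens). Maternal age differences against lung ran from -1.55 to 0.218 (hippocampus), -1.06 to 0.0955 (cerebellum) and -0.808 to 0.659 (hypothalamus). CpG-allele calls ran from 0 to 2 (lung age, cerebellum and prefrontal cortex), 0 to 1 (hippocampus), 7 to 14 (hypothalamus) and 5 to 14 (nucleus accumbens), and tissue pairs from 0 to 6. BL6 minus CAST ran from -0.427 (past the threshold without mouse 2) to -0.259. Sox2ot minus Klf4 ran from 0.693 to 1.04 (cerebellum), 4.53 to 5.29 (hypothalamus), 3.53 to 4.31 (nucleus accumbens) and 1.39 to 1.77 (lung). Without mouse 1, 2, 3, 5 or 6 all 4 missed the adjusted threshold, and cerebellum also without mouse 8. Hypothalamus, nucleus accumbens and lung then had 6 mice, with a smallest exact p of 0.0312, as they also had without mouse 4 or 7, where they passed. Depth of 50 to 1014 reads and 2 to 4 mice per age limit the age tests.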
